A study of Mus musculus with 6 samples.

Results

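Hepatokines are proteins that hepatocytes release into the blood and that act on other cells. The genes described here are 9 secreted hepatokines, chosen by name: Lect2, Fgf21, Angptl4, Angptl6, Ahsg, Fetub, Gdf15, Inhbe and Sepp1. All 9 were found by symbol among the 17275 genes of the deposited count table, and all 9 were among the 12343 genes with enough reads to be tested. Sepp1 is the older symbol of Selenop, the gene of selenoprotein P.

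RNA was sequenced from sorted hepatocytes of C57BL/6 mice with the genotype Axin2rtTA;TetO-H2B-GFP. In this reporter the Axin2 locus drives the doxycycline-dependent activator rtTA, which switches on a green fluorescent histone, so the label records Axin2 promoter activity over the days of doxycycline, and the histone can outlast that activity. Axin2 is a target and a feedback inhibitor of Wnt/β-catenin signalling. Axin2-positive (GFP+, 3 libraries) and Axin2-negative (GFP-, 3 libraries) hepatocytes both carried the 2 transgenic alleles and both had 7 days of doxycycline, after which non-parenchymal cells were removed. The age is given both as postnatal day 63 and as 8 weeks. Libraries are numbered 1, 2 and 3 by the sequencing index that 1 library of each group shares, and the labels do not say whether they came from separate or pooled mice, so p-values measure only the spread between these libraries.

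Hepatocytes take on different tasks along the path of blood through the liver lobule. Wnt signals near the central vein switch on the pericentral programme through β-catenin and TCF/LEF factors, while hepatocytes near the portal vein run urea and glucose synthesis. Several hepatokines are also hormones of nutrient state or stress: Fgf21 and Angptl4 are induced in fasting through PPARα, and Fgf21, Gdf15 and Inhbe in the integrated stress response through ATF4 and its partners. Such genes can therefore vary with feeding and stress as well as with lobular position.

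The promoters of 4 of these genes are shown: Lect2 had the largest difference of the 9 between the sorted groups, Ahsg was the most abundant, and Fgf21 and Inhbe, whose differences passed no test, share a stress-response motif. Each run is 250 bases before to 50 bases after the RefSeq start in GRCm38.p6, 5′ to 3′ on the strand of the gene, with motifs in capitals. In Lect2 the capitals mark the TCF/LEF motif ATCAAAG, and in Fgf21 and Inhbe they mark TTGCATCA, the reverse complement of the C/EBP-ATF response element TGATGNAA.
Lect2: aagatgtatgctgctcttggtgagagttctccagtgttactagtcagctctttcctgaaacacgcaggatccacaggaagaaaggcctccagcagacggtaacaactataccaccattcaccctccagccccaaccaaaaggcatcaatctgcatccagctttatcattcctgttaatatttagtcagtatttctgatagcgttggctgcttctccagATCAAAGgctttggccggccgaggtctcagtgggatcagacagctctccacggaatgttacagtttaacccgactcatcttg
Ahsg: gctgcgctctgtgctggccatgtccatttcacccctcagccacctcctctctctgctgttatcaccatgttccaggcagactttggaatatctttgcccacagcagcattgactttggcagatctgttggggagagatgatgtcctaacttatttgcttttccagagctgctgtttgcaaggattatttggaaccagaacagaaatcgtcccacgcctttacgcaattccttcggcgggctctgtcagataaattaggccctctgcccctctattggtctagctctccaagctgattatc
Fgf21: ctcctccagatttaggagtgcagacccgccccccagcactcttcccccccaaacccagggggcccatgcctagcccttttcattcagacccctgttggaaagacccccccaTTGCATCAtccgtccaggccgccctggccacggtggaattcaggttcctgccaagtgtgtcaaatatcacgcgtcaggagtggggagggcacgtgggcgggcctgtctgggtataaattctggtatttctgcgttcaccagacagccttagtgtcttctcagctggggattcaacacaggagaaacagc
Inhbe: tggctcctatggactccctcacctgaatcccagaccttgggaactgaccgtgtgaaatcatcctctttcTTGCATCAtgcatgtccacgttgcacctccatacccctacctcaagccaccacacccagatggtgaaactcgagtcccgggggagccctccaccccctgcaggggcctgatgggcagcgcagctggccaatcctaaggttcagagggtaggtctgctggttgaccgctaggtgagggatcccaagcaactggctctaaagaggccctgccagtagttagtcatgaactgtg
These windows are chr13:56548489-56548788 on the minus strand for Lect2, chr16:22891765-22892064 on the plus strand for Ahsg, chr7:45615441-45615740 on the minus strand for Fgf21 and chr10:127351799-127352098 on the minus strand for Inhbe. The RefSeq starts of Ahsg and Inhbe lie inside the GENCODE genes. The Lect2 match lies at positions -32 to -26 from the RefSeq start, the Fgf21 match at -139 to -132 and the Inhbe match at -181 to -174. Of 32851 promoter windows of the same length in the table, 3.73% hold ATCAAAG and 3.97% hold TGATGNAA, each on either strand. An HNF1 motif and a PPAR response element were searched in the same way. They occur in 0.06% and 0.04% of windows and in none of the 12 windows found for the 8 members with an entry. Angptl4 is named only. A match is a description of letters, not a bound site.

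Libraries held 75882611 to 103386648 reads assigned to genes. The libraries labelled Axin2-positive 1 and Axin2-negative 1 were nearly alike. Over genes with at least 20 reads in the 2 libraries, their median chi-square per gene was 1.16, against 9.48 to 28.7 in the 14 other pairs of libraries and 0.455 under counting error only. The sorted gene goes against the label there. Axin2 had 2.40, 22.6 and 24.2 CPM (counts per 1e6 reads, on scaled totals) in libraries labelled Axin2-positive 1, 2 and 3, and 3.04, 3.75 and 5.75 CPM in Axin2-negative 1, 2 and 3. The hepatokines are therefore given with all 6 libraries and again without both libraries of replicate 1. That second fit keeps replicates 2 and 3 as pairs and rests on 1 residual degree of freedom. Its choice was made knowing that replicate 1 showed little difference, so it describes the remaining pairs. The libraries of replicate 2 also held reads of the Y-linked gene Ddx3y. These were 7164 in Axin2-positive 2 and 6759 in Axin2-negative 2, against 0 to 3 in the others. Xist, a transcript of female cells, had 4 reads in Axin2-positive 2 and 5 in Axin2-negative 2, against 32242 to 52151 in the others. By these genes the pair of replicate 2 came from male cells and the remaining pairs from female cells. The fit without replicate 1 thus holds a male and a female pair. The part of sex in differences between replicates was not tested. Hepatocyte markers took 121721 to 207227 CPM of library totals in Axin2-positive and 119890 to 205492 CPM in Axin2-negative libraries. In bulk samples such as these, fewer cells of a type and less RNA per cell cannot be told apart.

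Lect2 was the hepatokine that differed most between the sorted populations. In replicates 2 and 3 its transcript was 5.36-fold higher in Axin2-positive than in Axin2-negative hepatocytes. Ahsg, the gene of fetuin-A, was lower in the same libraries at 0.654 times the Axin2-negative level. The other 7 hepatokines did not pass the test in that fit, and with all 6 libraries none of the 9 did.

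At an adjusted p under 0.05, 0 of 12343 genes (0%) and none of the hepatokines passed edgeR's quasi-likelihood test when all 6 libraries were fitted. The adjusted p of every hepatokine was 0.999. At an unadjusted p under 0.05 it held 279 genes, 2.26% of those tested, and Lect2 was the only hepatokine among them. DESeq2 and limma-voom also called 0 genes, with 432 and 238 at an unadjusted p under 0.05. With the replicate as a block edgeR again called 0 genes, and 9.17% had an unadjusted p under 0.05. Without replicate 1, edgeR called 922 of 12385 genes, 7.44% of those tested, of which 425 were higher (3.43%) and 497 lower (4.01%) in Axin2-positive libraries. Among the 9 hepatokines, 1 was called higher and 1 lower.

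**Figure D1:**
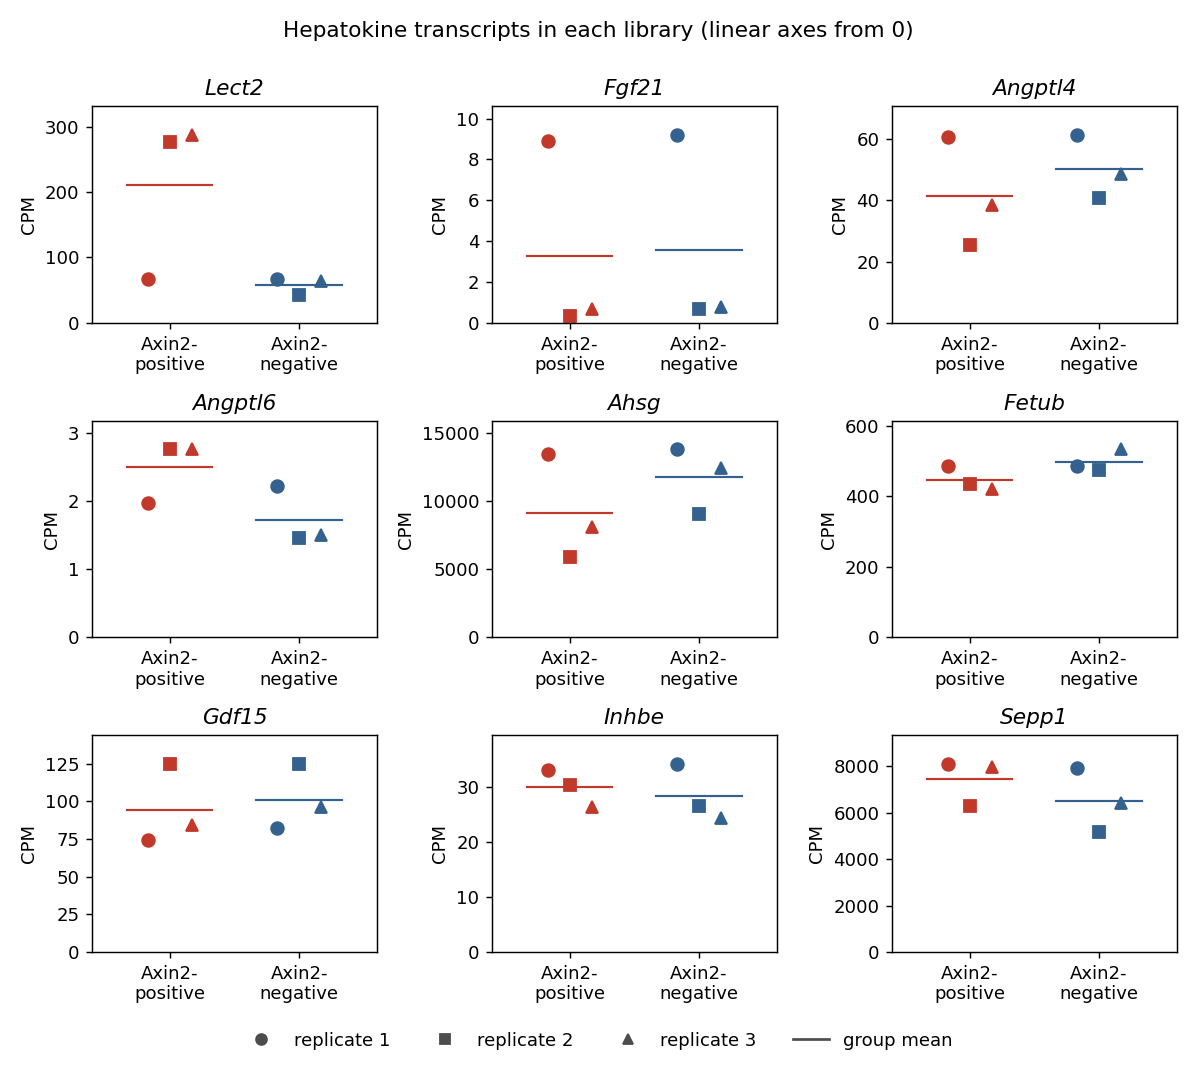
CPM of each hepatokine (vertical axis, linear from 0) in Axin2-positive libraries (red, left) and Axin2-negative libraries (blue, right), with the replicate as the symbol and the group mean as a line. Lect2 is high only in Axin2-positive 2 and 3, at 277 and 288 CPM, while the 2 libraries of replicate 1 lie side by side in every panel.

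Lect2, leukocyte cell-derived chemotaxin 2, is a protein secreted by hepatocytes that binds the receptor Met and is a known β-catenin target in mouse liver. The gene lies at chr13:56542464-56548502 on the minus strand (GENCODE, GRCm38) and has 5 exons. It had 67.1, 277 and 288 CPM in libraries labelled Axin2-positive 1, 2 and 3, and 66.9, 42.9 and 64.8 CPM in Axin2-negative 1, 2 and 3, from 3449 to 24753 reads. The library labelled Axin2-positive 1 lay at the level of the Axin2-negative libraries, and the other 2 Axin2-positive libraries stood far above all others. The group means were 211 ± 124 CPM in Axin2-positive and 58.2 ± 13.3 CPM in Axin2-negative libraries (SD, n = 3 each).

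With all 6 libraries the log2 fold change of Lect2 was 1.86 (SE 0.56) with an unadjusted p of 0.0158 in edgeR's fit across all genes, rank 16 by p and 65 by fold among 12343 genes. Without replicate 1 it was 2.42 (SE 0.16) with an adjusted p of 0.00530 in edgeR, rank 33 by p. DESeq2 on the same libraries, where it called 11.1% of genes, gave an adjusted p of 1.15e-45. That value also rests on 1 residual degree of freedom. Against a fold of 1.5 rather than no change, where edgeR called 1.68% of genes, Lect2 had an adjusted p of 0.00935. Within replicates the log2 difference was 0.01, 2.69 and 2.15 in replicates 1, 2 and 3. The SD of this difference over all tested genes was 0.22, 0.78 and 0.62. All 3 Axin2-positive values lay above all 3 Axin2-negative values, the only hepatokine without overlap, but by 67.1 against 66.9 CPM at the closest. Of all tested genes 3.44% had all 3 Axin2-positive values on top, 3.77% had all 3 below, and 7.21% had no overlap in either direction.

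In a list of 27 pericentral hepatocyte genes, which does not hold Lect2, the median log2 fold change without replicate 1 was 1.70, with 23 of 27 called higher and 0 lower, and with all 6 libraries it was 1.47 with 0 called. In 26 periportal genes the median was -1.35, with 0 called higher and 23 lower, and with all 6 libraries -0.76 with 0 called. Of all tested genes, 3.43% were called higher and 4.01% lower without replicate 1. The glutamine synthetase gene Glul had 88.0, 339 and 1049.9 CPM in libraries labelled Axin2-positive 1, 2 and 3, and 87.9, 46.9 and 119 CPM in Axin2-negative 1, 2 and 3. Lect2 thus lay above the middle of the pericentral list in the replicates where that list differed, and in replicate 1 the list medians were -0.0019 and -0.0086.

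**Figure D2:**
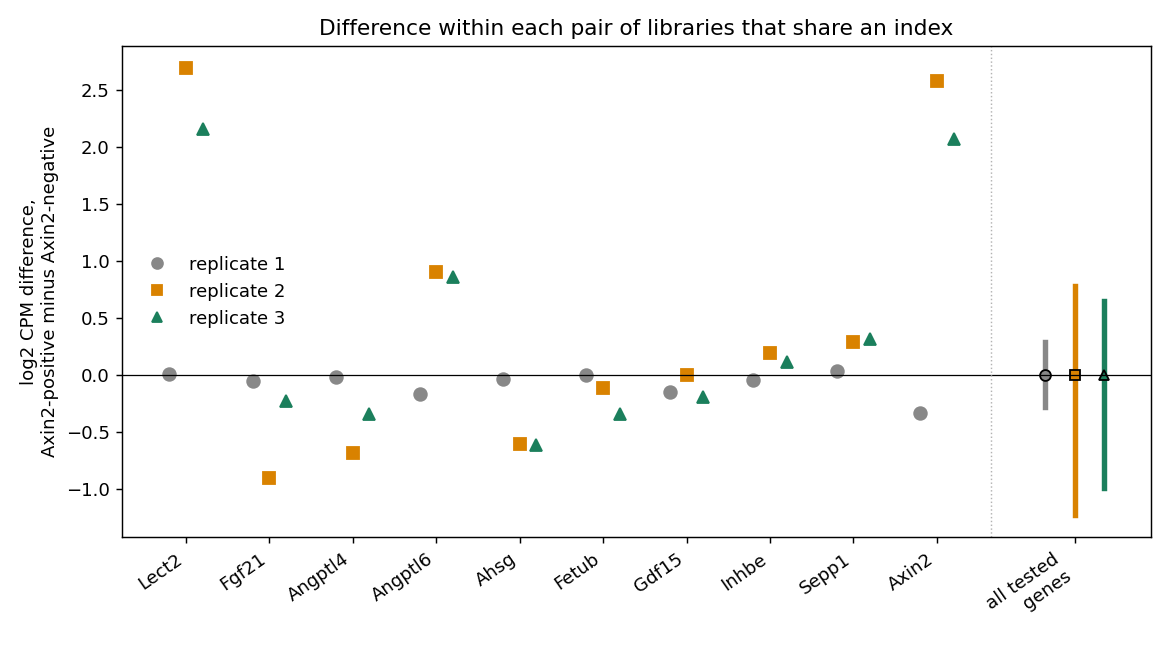
Log2 CPM difference, Axin2-positive minus Axin2-negative (vertical axis), of each hepatokine and of Axin2 within replicates 1, 2 and 3, with the median and the range from the 5th to the 95th percentile of all tested genes at the right. Lect2 is at 0.01, 2.69 and 2.15, near Axin2 in replicates 2 and 3, and the other hepatokines stay between -0.90 and 0.90.

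Ahsg and Fetub encode fetuin-A and fetuin-B, cystatin-family plasma glycoproteins. Fetuin-A binds calcium phosphate and restrains ectopic mineralisation and insulin receptor signalling, and fetuin-B keeps the egg coat open to sperm by inhibiting ovastacin. The 2 genes are neighbours on chromosome 16, 18.9 kb apart and on the same strand, with Ahsg at chr16:22891277-22899449 and Fetub at chr16:22918334-22939778. An antisense gene, Gm30505, overlaps Ahsg.

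Ahsg was the most abundant of the 9. It had 13422, 5927 and 8078 CPM in libraries labelled Axin2-positive 1, 2 and 3, and 13799, 9045 and 12400.4 CPM in Axin2-negative 1, 2 and 3. In replicates 2 and 3 it was lower in the Axin2-positive library, and the groups overlapped because replicate 1 was high in both. The means were 9142 ± 3859 CPM in Axin2-positive and 11748 ± 2443 CPM in Axin2-negative libraries (SD, n = 3 each). The log2 fold change with all 6 libraries was -0.36 (SE 0.34). With the replicate as a block it was -0.42 (SE 0.17), with an adjusted p of 0.450 in edgeR. Without replicate 1 it was -0.61 (SE 0.07), with an adjusted p of 0.0163 in edgeR and 1.80e-07 in DESeq2, which called 11.1% of genes there. Tested against a fold of 1.5 it was not called (adjusted p 1 in edgeR). Within replicates the log2 difference was -0.04, -0.61 and -0.62.

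Fetub varied little. It had 486, 436 and 421 CPM in libraries labelled Axin2-positive 1, 2 and 3, and 486, 474 and 534 CPM in Axin2-negative 1, 2 and 3. The coefficient of variation was 7.58% in Axin2-positive and 6.43% in Axin2-negative libraries, against 15.9% and 13.6% for the median gene. The log2 fold change was -0.15 (SE 0.13) with all libraries and -0.23 (SE 0.11) without replicate 1, where the adjusted p was 0.269 in edgeR. Hrg, a histidine-rich plasma glycoprotein gene 11.3 kb from Fetub, had 1037, 919 and 890 CPM in libraries labelled Axin2-positive 1, 2 and 3, and 1030, 1040 and 1081 CPM in Axin2-negative 1, 2 and 3. In the list of 5 tested cystatin-superfamily genes beyond these 2, 0 were called in either fit.

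Fgf21 (chr7:45613886-45615490, minus strand), fibroblast growth factor 21, is a hormone of fasting and nutrient stress that acts through the co-receptor Klb. Its transcript was scarce in 4 of the 6 libraries. It had 8.89, 0.329 and 0.674 CPM in libraries labelled Axin2-positive 1, 2 and 3, and 9.22, 0.659 and 0.798 CPM in Axin2-negative 1, 2 and 3, from 26 to 882 reads. The 2 libraries of replicate 1 were high whatever the label, and the other 4 were low, a difference of 3.84 on the log2 scale. The log2 fold change between the sorted groups was -0.11 (SE 1.53) with all libraries, and -0.59 (SE 0.39) with an adjusted p of 0.388 in edgeR without replicate 1. The group means were 3.30 ± 4.85 CPM in Axin2-positive and 3.56 ± 4.90 CPM in Axin2-negative libraries (SD, n = 3 each). The spread within a group thus exceeded the difference between them, and it includes the difference between replicates. With the replicate as a block, all 6 libraries gave a log2 fold change of -0.37 (SE 0.23), with an adjusted p of 0.480 in edgeR.

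Angptl4 (chr17:33773750-33781830, minus strand) encodes an inhibitor of lipoprotein lipase that PPARα induces in fasting. It had 60.6, 25.3 and 38.3 CPM in libraries labelled Axin2-positive 1, 2 and 3, and 61.3, 40.7 and 48.5 CPM in Axin2-negative 1, 2 and 3. It was lower in the Axin2-positive library of replicates 2 and 3, with within-replicate log2 differences of -0.02, -0.69 and -0.34. With all libraries its log2 fold change was -0.28 (SE 0.33). With the replicate as a block it was -0.35 (SE 0.14), with an adjusted p of 0.450 in edgeR. Without replicate 1 it was -0.51 (SE 0.11), with an adjusted p of 0.0596 in edgeR and 0.0186 in DESeq2, so the call depends on the tool. DESeq2 called 11.1% of genes in those libraries.

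Angptl6 (chr9:20873808-20879727, minus strand), also called angiopoietin-related growth factor, had the lowest mean level per kilobase over the 6 libraries, although Fgf21 was lower in all 4 libraries of replicates 2 and 3. It had 1.98, 2.76 and 2.77 CPM in libraries labelled Axin2-positive 1, 2 and 3, and 2.23, 1.46 and 1.505 CPM in Axin2-negative 1, 2 and 3, from 117 to 238 reads. It was higher in the Axin2-positive library of replicates 2 and 3 and lower in that of replicate 1, with differences of 0.90, 0.86 and -0.17. With all libraries its log2 fold change was 0.53 (SE 0.27). Without replicate 1 it was 0.90 (SE 0.21) with an adjusted p of 0.0704 in edgeR and 0.143 in DESeq2. Angptl6 overlaps A230050P20Rik on the opposite strand. Gm6484 (current symbol Angptl8), a feeding-induced gene of the same family, had 130, 31.0 and 45.8 CPM in libraries labelled Axin2-positive 1, 2 and 3, and 131, 34.7 and 43.3 CPM in Axin2-negative 1, 2 and 3. Like Fgf21 it was high in both libraries of replicate 1.

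**Figure D3:**
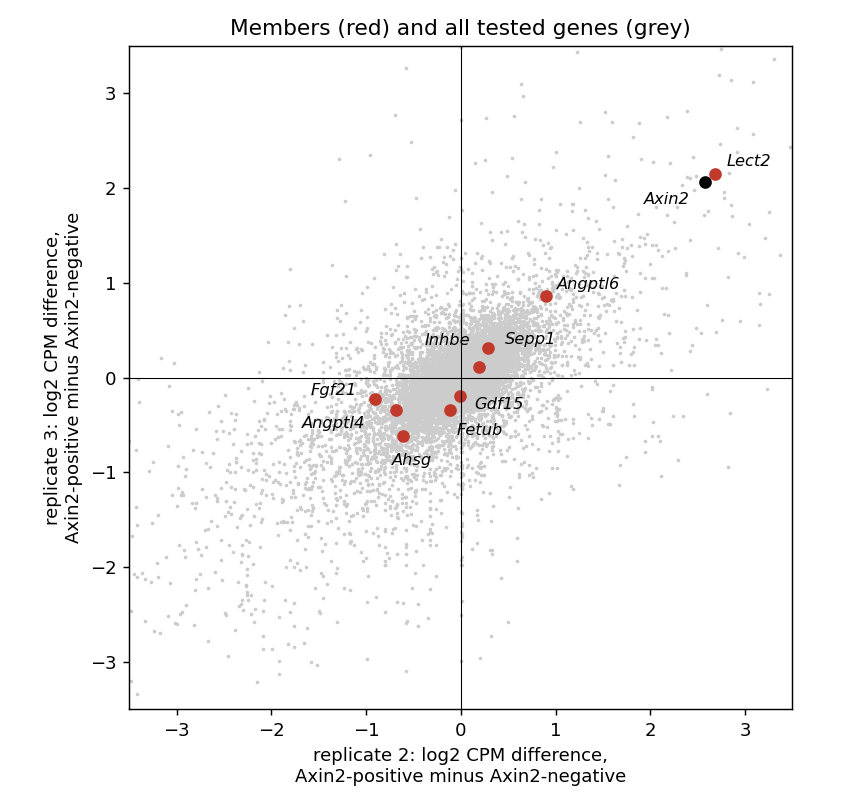
Log2 CPM difference, Axin2-positive minus Axin2-negative, in replicate 2 (horizontal axis) against replicate 3 (vertical axis), for all tested genes in grey, hepatokines in red and Axin2 in black. Lect2 lies next to Axin2 at the upper right, and 112 genes fall outside the axes at 3.5.

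Gdf15 (chr8:70629393-70632456, minus strand) is a stress hormone that acts on the hindbrain through its receptor Gfral. It had 74.1, 125 and 84.2 CPM in libraries labelled Axin2-positive 1, 2 and 3, and 82.2, 125 and 96.3 CPM in Axin2-negative 1, 2 and 3. The libraries of replicate 2 were the highest in both groups, and the groups overlapped. The log2 fold change was -0.10 (SE 0.25) with all libraries and -0.10 (SE 0.10) without replicate 1, where the adjusted p was 0.590 in edgeR.

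Inhbe (chr10:127348857-127354411, minus strand) encodes the βE subunit of activin E, which acts on adipose tissue. It had 33.2, 30.5 and 26.4 CPM in libraries labelled Axin2-positive 1, 2 and 3, and 34.4, 26.7 and 24.4 CPM in Axin2-negative 1, 2 and 3. Both groups covered nearly the same range. The log2 fold change was 0.08 (SE 0.16) with all libraries and 0.16 (SE 0.08) without replicate 1, where the adjusted p was 0.307 in edgeR. Inhbc, the neighbouring subunit gene 1.9 kb away, had 38.7, 77.2 and 60.1 CPM in libraries labelled Axin2-positive 1, 2 and 3, and 38.5, 73.6 and 55.5 CPM in Axin2-negative 1, 2 and 3. The antisense gene Gm47200 overlaps both.

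Sepp1 (chr15:3268547-3280508, plus strand) encodes the selenium carrier of plasma. It had 8122, 6298 and 7956 CPM in libraries labelled Axin2-positive 1, 2 and 3, and 7949, 5153 and 6413 CPM in Axin2-negative 1, 2 and 3. The Axin2-positive library was higher in replicates 2 and 3, with log2 differences of 0.29 and 0.31, and the difference in replicate 1 was 0.03. With all libraries its log2 fold change was 0.20 (SE 0.22). Without replicate 1 it was 0.30 (SE 0.08), with an adjusted p of 0.0839 in edgeR and 0.0350 in DESeq2. Ccdc152 overlaps Sepp1 on the opposite strand. Of 20 other selenoprotein and selenium-handling genes, 2 were called higher without replicate 1, Selk and Ept1 (current symbols Selenok and Selenoi), and 1 lower, Txnrd2, the mitochondrial thioredoxin reductase. Over all genes 3.43% were called higher and 4.01% lower in that fit.

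All 9 hepatokines had the same sign in replicates 2 and 3, as did 71.7% of tested genes. In all 3 replicates the sign agreed for 7 of 9, against 39.6% of genes. The sign in replicate 1 rests on differences of at most 0.17 on the log2 scale.

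**Figure D4:**
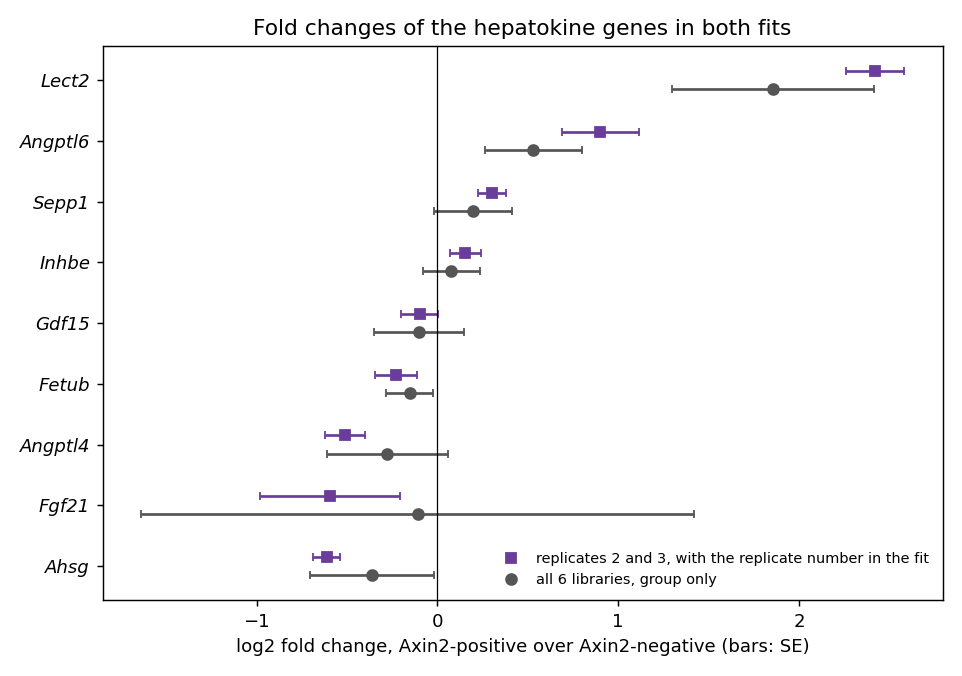
Log2 fold change, Axin2-positive over Axin2-negative (horizontal axis), of each hepatokine with its standard error. The fits are all 6 libraries with the group only, and without replicate 1 with the replicate as a block. Their standard errors thus come from different models as well as different libraries. Lect2 is at 1.86 and 2.42, and Ahsg at -0.36 and -0.61.

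Levels were also divided by the kilobases of all annotated protein-coding exons of each gene, so the order between genes depends on the annotation. The mean level over the 6 libraries was 6130 CPM per kb for Ahsg, 3255 for Sepp1, 241 for Fetub, 146 for Lect2, 52.8 for Gdf15, 13.9 for Angptl4, 5.50 for Inhbe, 3.61 for Fgf21 and 1.34 for Angptl6. The ranges over libraries overlapped between Ahsg and Sepp1, Fetub and Lect2, and Lect2 and Gdf15. That of Fgf21 overlapped those of Angptl4, Inhbe and Angptl6. Lect2 averaged 229 ± 135 CPM per kb in Axin2-positive and 63.3 ± 14.4 in Axin2-negative libraries, and Fetub 228 ± 17.3 in Axin2-positive and 254 ± 16.3 in Axin2-negative libraries (SD, n = 3 each). Per library, Lect2 had 73.1, 301 and 313 CPM per kb in libraries labelled Axin2-positive 1, 2 and 3, where Fetub had 248, 222 and 215. Lect2 was thus above Fetub in Axin2-positive 2 and 3 and below it in the library labelled Axin2-positive 1 and in all 3 Axin2-negative libraries.

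The authors' deposited table of FPKM per transcript and group, which has no replicate values, gave Lect2 at 248 FPKM in Axin2-positive and 68.6 FPKM in Axin2-negative cells, with a q-value of 0.00961. Of the transcripts in the authors' deposited table, 97 of 13843 transcripts with enough data were marked significant, 0.701%, and Lect2 was the only hepatokine among them. The authors' deposited table listed Gdf15 at 182 and 184 FPKM, Angptl4 at 24.8 and 30.1 FPKM, and Fgf21 at 4.11 and 4.43 FPKM in Axin2-positive and Axin2-negative cells. Angptl6 was at 8.43 FPKM in Axin2-positive and 8.67 FPKM in Axin2-negative cells in the authors' deposited table, where the read counts had the higher mean in Axin2-positive libraries. By the authors' FPKM, Angptl6 was above Fgf21 in both groups, and Gdf15 was above Lect2 in Axin2-negative cells. The order of the mean levels per kilobase of exon was the reverse, so the order of these genes depends on the measure. Ahsg and Sepp1 carried the status HIDATA in the authors' deposited table, given where reads were too many for the computation. Under that status Ahsg stood at 0 FPKM in both groups. The Sepp1 transcripts stood at 0 FPKM in Axin2-positive and at 3.23, 4.69 and 2990 FPKM in Axin2-negative cells. These entries are therefore not compared between the groups.

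With all 6 libraries 0 genes of any list below were called. Of 20 receptors and partners of these hormones tested without replicate 1, 0 were called higher and 2 lower in Axin2-positive libraries, the receptor genes Fgfr1 and Fgfr2, beside 4.01% of all genes called lower. Fgfr2 had 31.1, 0.0127 and 0.698 CPM in libraries labelled Axin2-positive 1, 2 and 3, and 31.2, 16.4 and 46.4 CPM in Axin2-negative 1, 2 and 3, with 1 and 60 reads in Axin2-positive 2 and 3. Its log2 fold change was -6.60 (SE 0.47) without replicate 1 and -1.56 with all 6 libraries. Fgfr1, the Fgf21 receptor of fat tissue, had 0.340, 0.0380 and 0.116 CPM in libraries labelled Axin2-positive 1, 2 and 3, and 0.397, 3.68 and 2.77 CPM in Axin2-negative 1, 2 and 3. The liver receptor Fgfr4 had an adjusted p of 0.0536 in edgeR. Klb had 63.6, 35.9 and 61.5 CPM in libraries labelled Axin2-positive 1, 2 and 3, and 64.0, 42.2 and 67.9 CPM in Axin2-negative 1, 2 and 3. Met, a receptor of Lect2, had 109, 73.1 and 90.9 CPM in libraries labelled Axin2-positive 1, 2 and 3, and 105, 91.2 and 105 CPM in Axin2-negative 1, 2 and 3. Tie1, also in this list, had 2.37, 0.925 and 1.73 CPM in libraries labelled Axin2-positive 1, 2 and 3, and 2.36, 3.25 and 2.78 CPM in Axin2-negative 1, 2 and 3. Its log2 fold change without replicate 1 was -1.23, with an adjusted p of 0.0913 in edgeR.

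Of 30 other hepatokines and liver hormones, 2 were called higher without replicate 1 and 5 lower, beside 3.43% and 4.01% of all genes. The 2 were Orm2, an acute-phase orosomucoid, and Tsku, and the 5 were Enho, Fst, Igfbp2, Hgfac and Hamp, the hepcidin gene. Igfbp2, an insulin-like growth factor carrier, had 192, 166 and 179 CPM in libraries labelled Axin2-positive 1, 2 and 3, and 193, 465 and 400 CPM in Axin2-negative 1, 2 and 3. It is also in the periportal list. The median log2 fold change of the list was -0.13 with all libraries and -0.17 without replicate 1, beside -0.0047 and -0.0021 over all tested genes.

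Of 30 PPARα target genes, 7 were called higher and 0 lower without replicate 1, beside 3.43% and 4.01% of all genes: Acot1, Vnn1, Pdk4, Fabp1, Cyp4a10, Aldh3a2 and Cyp4a14. Pdk4, which restrains glucose oxidation, had 27.4, 80.1 and 57.3 CPM in libraries labelled Axin2-positive 1, 2 and 3, and 26.6, 3.42 and 6.90 CPM in Axin2-negative 1, 2 and 3. Fgf21 and Angptl4, whose genes PPARα also induces, had log2 fold changes of -0.59 and -0.51 in that fit. The median of the list was 0.18 there and 0.10 with all 6 libraries. Of 26 integrated stress response targets, 3 were called higher (Vldlr, Asns and Mthfd2) and 2 lower (Cebpb and Trib3), and the median was -0.10 there and -0.06 over 27 tested with all 6 libraries. Asns, asparagine synthetase, had 0.247, 3.75 and 1.21 CPM in libraries labelled Axin2-positive 1, 2 and 3, and 0.125, 0.821 and 0.467 CPM in Axin2-negative 1, 2 and 3.

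Markers of other cell types moved with replicate and partly with group. The summed Kupffer and macrophage markers were 32.8, 97.6 and 45.8 CPM in libraries labelled Axin2-positive 1, 2 and 3, and 32.6, 113 and 76.2 CPM in Axin2-negative 1, 2 and 3. Of 11 such markers tested, 7 were called lower without replicate 1, beside 4.01% of all genes. Mpeg1 made up most of that sum, with 30.2, 95.1 and 38.2 CPM in libraries labelled Axin2-positive 1, 2 and 3, and 30.1, 100.7 and 41.3 CPM in Axin2-negative 1, 2 and 3, and it was not called. Clec4f, a defining Kupffer cell gene, had 1.05, 0.101 and 1.24 CPM in libraries labelled Axin2-positive 1, 2 and 3, and 0.909, 1.13 and 7.25 CPM in Axin2-negative 1, 2 and 3, so it was lowest in Axin2-positive 2, where the sum was 97.6 CPM. Endothelial markers summed to 62.2, 4.24 and 69.8 CPM in libraries labelled Axin2-positive 1, 2 and 3, and 61.8, 11.5 and 95.6 CPM in Axin2-negative 1, 2 and 3. Bile duct markers summed to 70.5, 64.0 and 33.9 CPM in libraries labelled Axin2-positive 1, 2 and 3, and 75.8, 109 and 35.6 CPM in Axin2-negative 1, 2 and 3, with 2 of 4 tested called lower, Sox9 and Spp1. Stellate cell markers summed to at most 9.36 CPM. Of the markers found in the count table, none was at 0 in all libraries. Those found were 15 of 16 listed for Kupffer cells, 16 of 16 endothelial, 12 of 12 stellate, 9 of 10 bile duct and 5 of 11 blood, and the others were not used here. The part of these cells in the hepatokine values was not tested.

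Across the 6 libraries, the genes whose log2 CPM followed each hepatokine most closely, among 7229 genes with a mean of at least 10 CPM, were Pag1 (r 0.999), Cyp2c54 and Vps35 for Lect2, and Gltpd1, Wwtr1 and Tgoln1 for Fgf21. They were Ctdsp2, Arhgef7 and Btbd9 for Angptl4, Mrpl13, Polr1c and Asb13 for Angptl6, Slc40a1, 5430407P10Rik and Soat2 for Ahsg, and Rab32, Pld3 and Snx17 for Fetub. For Gdf15 they were Scamp3, Gde1 and Vps18, for Inhbe Cnot8, Rpl28 and Whsc2, and for Sepp1 Nt5c2, Brp44 and Lipa. Cyp2c54, a cytochrome P450 gene of a family with near-identical members, had 364, 963 and 898 CPM in libraries labelled Axin2-positive 1, 2 and 3, and 357, 262 and 344 CPM in Axin2-negative 1, 2 and 3. These correlations describe 6 libraries, of which 2 are nearly alike and pairs share an index, so they carry no test.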

How the data were processed

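For each of 6 libraries the authors deposited a count of reads per gene symbol, and for each group FPKM values per transcript with p-values and q-values. The submitters' processing notes name TopHat2 2.0.11, Cuffdiff 2.2.2 and mm10, and per the file headers the FPKM table has Cuffdiff's layout. The library kit marks strand, per the labels' protocols, but how genes were counted, and whether by strand, is not given in the sources used here; overlapping and antisense genes are therefore uncertain. The members and gene lists were chosen with earlier results of these data known.

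The test was edgeR's quasi-likelihood F test (edgeR 4.0.16, R 4.3.3) on all 6 libraries with the group as the only term, after filterByExpr at its defaults and TMM scaling, with Benjamini-Hochberg adjustment over all tested genes and a threshold of 0.05. The standard error is the log2 fold change divided by the square root of F. CPM values use TMM-scaled totals except the summed markers, and differences within a replicate use an offset of 0.05 CPM. Alternatives were DESeq2 1.42.0, limma-voom (limma 3.58.1), other scalings and filters, a replicate block, and fits without each library or replicate in turn. DESeq2 and the test against a fold of 1.5 without replicate 1 were added after the data were seen. The test was also run on simulated counts, with the same spread for every gene and known changes that were equal in all replicates. The libraries of replicate 1 differ from that setting, so the simulation does not bear on the fits that hold them.

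The replicate number is the shared index. Same-numbered libraries deviated together from their group means, with r across genes of 0.68, 0.82 and 0.75. Between libraries of different numbers r was -0.61 to 0.14, so the numbers pair the libraries. The minimum of 0.1 set for pairing does not by itself separate them, since 0.14 also passes it.

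Named genes were the 9 members, Axin2, up to 3 genes with the lowest p of each list (the 3 most abundant for markers) and the 3 genes most like each member. List genes called without replicate 1, neighbouring genes, Klb and Met were named after their values were seen. Coordinates are from GENCODE and promoters from RefSeq, both GRCm38. Some list genes are not reported here.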

Additional observations from a re-analysis of the deposited data

How the results depend on the processing

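Calls depended on the libraries of replicate 1. With all 6 libraries 0 genes and 0 hepatokines were called in either direction, also with the replicate block, where Lect2 had a log2 fold change of 1.65 and an adjusted p of 0.450 in edgeR. Leaving out 1 library at a time gave 0 to 1 genes called higher and 0 to 5 lower, the most without Axin2-positive 1. With the replicate block and without replicate 1, edgeR called 425 genes higher and 497 lower, DESeq2 676 and 694, and edgeR against a fold of 1.5 98 and 110. The hepatokines called were 1 higher and 1 lower in edgeR, 2 and 2 in DESeq2, and 1 and 0 against a fold of 1.5. The values past the threshold were Lect2 at 2.42 in all 3, Ahsg at -0.61 in edgeR and DESeq2, and Angptl4 at -0.51 and Sepp1 at 0.30 in DESeq2. With the pair of replicate 2 or of replicate 3 left out instead, 0 genes were called, and Lect2 was at 1.08 and 1.35. The cause of these changes was not tested. Leaving out 1 library moved Lect2 between 1.56 and 2.28. It turned the direction of Fgf21 (range -2.82 to 2.18, positive without Axin2-negative 1, Axin2-positive 2 or Axin2-positive 3), Gdf15 (-0.36 to 0.080) and Inhbe (-0.020 to 0.23). These fits held the group only, so leaving out 1 library also unbalanced the replicates between the groups. In the fits with the replicate block, Fgf21 and Gdf15 stayed negative and Inhbe positive. Fgf21 was there at -0.37 with all 6 libraries, and at -0.59, -0.13 and -0.45 without replicates 1, 2 and 3. The other 6 kept their sign in every alternative run, but 1 library moved Ahsg (-0.75 without Axin2-positive 1 to -0.13 without Axin2-positive 2), Angptl4 (-0.66 to -0.022, without the same libraries), Fetub (to -0.098 without Axin2-negative 3) and Sepp1 (0.055 without Axin2-negative 2 to 0.37 without Axin2-negative 1) by over 1.5 times. Fgf21 did not pass the filter of 1 CPM in at least 3 libraries, and an offset of 1 CPM moved its difference in replicate 2 to -0.32. Fgf21 and Angptl6 rest on the fewest reads, from 26 and 117 in the lowest library.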

Other observations

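The tested ligands and antagonists of the TGF-β superfamily, to which Gdf15 and Inhbe belong, had a median log2 fold change of -0.35 with all libraries and -0.38 without replicate 1, beside -0.0047 and -0.0021 over all tested genes. Fst, Bmp4 and Inhba, named after their values were seen, were called lower in Axin2-positive libraries of replicates 2 and 3 by edgeR, as were 4.01% of all genes. Fst encodes follistatin, a hepatokine that binds activins, and had 11.3, 0.101 and 0.163 CPM in libraries labelled Axin2-positive 1, 2 and 3, and 10.9, 9.41 and 4.61 CPM in Axin2-negative 1, 2 and 3. Inhba, the βA subunit of activin A, had 15.8, 1.80 and 2.76 CPM in Axin2-positive 1, 2 and 3, and 16.1, 4.88 and 5.16 CPM in Axin2-negative 1, 2 and 3. Both were highest in the libraries of replicate 1, as was Fgf21. Alas2, the only tested marker of blood cells, had 16.4, 191 and 26.9 CPM in Axin2-positive 1, 2 and 3, and 15.7, 200 and 16.6 CPM in Axin2-negative 1, 2 and 3, so that both libraries of replicate 2 stood above the others.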
